A study of Drosophila melanogaster with 4 samples.

Results

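The 8 protein-coding genes described here stood near 0 in fat bodies of control Drosophila melanogaster larvae and high in fat bodies of larvae whose muscle carried a complex I knockdown. They are lcs, CG33267, CG13135, CG13947, CG13946, CG12506, CG15741 and CG13170, 8 of the 13990 gene symbols in the deposited tables. They were selected on their measured values, because their level was high in both knockdown libraries and near 0 in the controls, up to the 4.22 FPKM of CG13947 in Con replicate 1, and because they lie outside the Jonah, cytochrome P450 and hexokinase families. The values that chose them are the FPKM of this same contrast. Their levels and changes are therefore given as a description, with no test.

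Larvae of the ND-75-i group (dMef2-Gal4/UAS-ND-75-RNAi) carried a muscle driver, dMef2-Gal4, and an RNAi transgene that targets ND-75, the gene of a complex I core subunit. Con larvae (dMef2-Gal4/UAS-white-RNAi) carried that driver too, with a transgene that targets white, which encodes an eye pigment transporter. Both groups were yw larvae of the third instar at 110 h after egg laying. Each group had 2 libraries, and each library held RNA pooled from 10 dissected fat bodies, so the tissue measured is not the one in which the driver acts. Whether the replicates are separate crosses is not stated in the labels, and p-values therefore measure only how far these samples spread, which may be technical.

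The larval fat body is the insect organ that stores lipid and glycogen, makes most proteins of the blood and combines tasks that vertebrates divide between liver and adipose tissue. Complex I is the NADH dehydrogenase that feeds electrons into the respiratory chain. Organs exchange hormones and secreted proteins through the blood, so a change confined to one organ can be followed in another. Of the 8 genes only lcs (la costa) has a name beyond its annotation number, and no function is stated for any of them here.

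Values are FPKM, which divide a gene's fragments by a length taken from its transcript and by the mapped fragments of the library. Levels can thus be compared between genes only roughly where transcripts are short. Each FPKM was deposited with a lower and an upper bound, which cover counting error within 1 library and not the spread between libraries. When the distance to the upper bound is taken as 2 standard deviations of a count, each FPKM corresponds to an implied number of fragments. Positions are those of the deposited tables whose starts were shifted by 1 base to count from 1. Their genome build is not given in the sources used here.

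The 8 genes summed to 5449 FPKM in ND-75-i replicate 1 and 4883 FPKM in ND-75-i replicate 2, against 5.64 FPKM in Con replicate 1 and 1.01 FPKM in Con replicate 2. This was 0.569% and 0.518% of all FPKM in the ND-75-i libraries, against 0.000655% and 0.000118% in the Con libraries. All 8 passed the filter on low values, and they passed it through the ND-75-i libraries. The groups did not overlap for any of the 8, as was so with ND-75-i above for 53.7% of all genes tested. For all 8 the lower bounds in both ND-75-i libraries also lay above the upper bounds in both Con libraries.

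**Figure D1:**
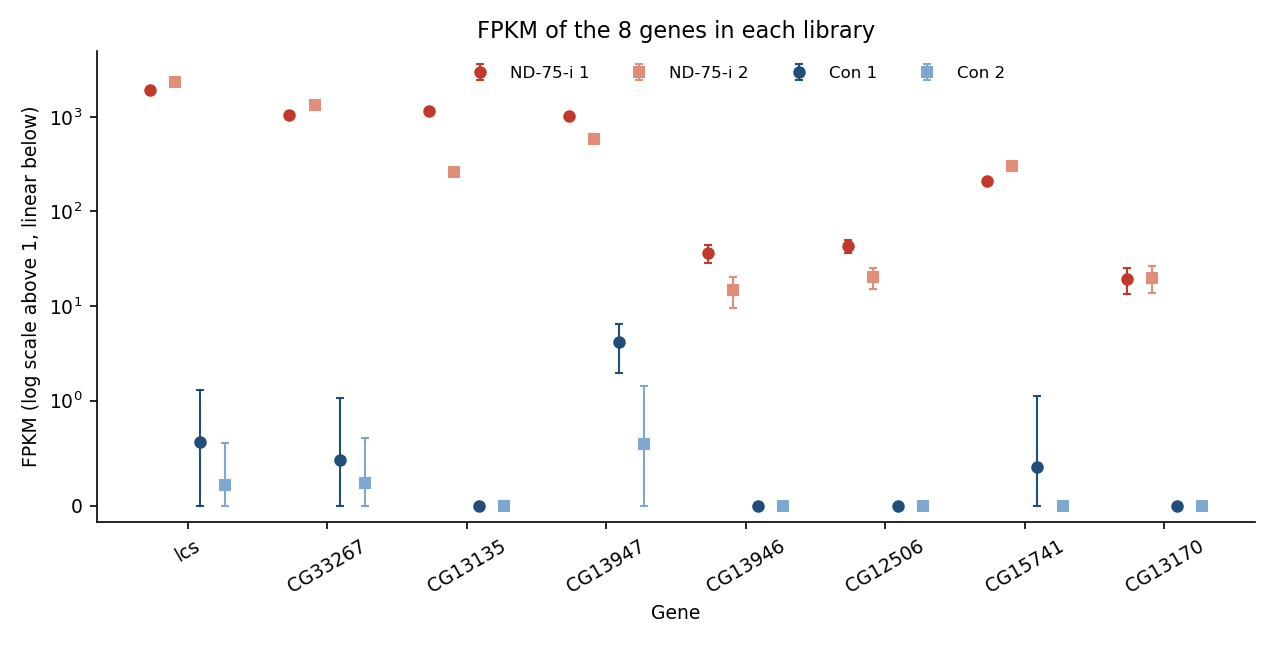
FPKM of each gene in the ND-75-i libraries (red, left) and the Con libraries (blue, right). Bars are the deposited bounds of each library, and the axis is logarithmic above 1 and linear below. The ND-75-i points of all 8 genes lie between 14.9 and 2339 FPKM, and the Con points between 0 and 4.22 FPKM.

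The highest in both ND-75-i libraries was lcs, on chromosome X at 21267754 to 21268326. It stood at 1910 and 2339 FPKM in ND-75-i replicates 1 and 2, against 0.61 and 0.199 FPKM in Con replicates 1 and 2. Both ND-75-i libraries were high and close to each other, and both Con libraries were near 0. The bounds ran from 1873 to 1947 and from 2296 to 2382 FPKM in ND-75-i, against 0 to 1.31 and 0 to 0.598 FPKM in Con. In fragments the same values correspond to 10597 and 11774 in ND-75-i, against 3 and 1 in Con. In ND-75-i its transcript ranked 111th and 87th of all genes with a usable estimate.

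CG33267, on 3L at 11557583 to 11565698, had the second largest log2 change. It had 1043 and 1345 FPKM in ND-75-i, against 0.438 and 0.215 FPKM in Con. Implied fragments were 5369 and 6289 in ND-75-i, against 2 and 1 in Con. As for lcs, both ND-75-i libraries were high, with replicate 2 the higher. CG33267 is the only 1 of the 8 with an intron in the annotation, and its locus spans 8116 bp for a protein of 94 residues.

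CG15741, on X at 11731636 to 11732043, followed the same order of libraries at a lower level. It was at 208 and 302 FPKM in ND-75-i, against 0.373 and 0 FPKM in Con, where a single fragment was implied in replicate 1. The current annotation also places an antisense RNA over this locus. Whether the authors' counting used strand is not given in the sources used here, so reads of the pair cannot be told apart.

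CG13135, on 2L at 10122196 to 10122771, differed most between the ND-75-i libraries. It reached 1158 FPKM in ND-75-i replicate 1 and 260.5 FPKM in ND-75-i replicate 2, a ratio of 4.45, and was listed at 0 in both Con libraries. The implied fragments were 6477 and 1322 in ND-75-i. Replicate 1 was thus the high library and replicate 2 the lower one, and both stood above every Con value of the 8 genes. CG13135 lies inside the deposited loci of CG42843 and CG34109. In ND-75-i replicates 1 and 2, CG42843 had 0.59 and 0.278 FPKM, against 0.095 and 0.0932 FPKM in Con. For CG34109 the values were 0.617 and 0.216 FPKM in ND-75-i, against 0.0633 and 0.0621 FPKM in Con, so the genes around it were near 0 in every library.

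CG13170, on 2R at 8127914 to 8128267, had the smallest log2 change of the 8. It had 19.5 and 20.0 FPKM in ND-75-i and was listed at 0 in both Con libraries. Its ND-75-i values rest on 43 and 40 implied fragments, and their bounds, 13.5 to 25.4 and 13.6 to 26.3 FPKM, overlapped. For the other 7 genes the bounds of the ND-75-i libraries did not overlap, so those libraries differed beyond counting error.

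The remaining members, CG12506, CG13946 and CG13947, are neighbours on 2L, on consecutive lines of the deposited tables. They lie at 773575 to 774020, 776536 to 776892 and 779201 to 779655, within 6081 bp, and are separated by gaps of 2515 and 2308 bp. The current annotation gives all 3 as genes of 1 exon on the plus strand. CG13947, at the right end, was by far the most abundant, at 1030 and 581 FPKM in ND-75-i, against 4.22 and 0.591 FPKM in Con. Its Con replicate 1 value, with 14 implied fragments and a lower bound of 1.96 FPKM, was the highest Con value among the 8 genes.

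CG12506 was at 43.4 and 20.3 FPKM in ND-75-i and was listed at 0 in both Con libraries. CG13946 was at 36.6 and 14.9 FPKM in ND-75-i and was also listed at 0 in both Con libraries. All 3 neighbours were higher in ND-75-i replicate 1 than in replicate 2, by 2.14 times for CG12506, 2.46 times for CG13946 and 1.77 times for CG13947. Within a library the level of CG13947 was 23.7 and 28.6 times that of CG12506 in ND-75-i replicates 1 and 2, and 28.1 and 38.9 times that of CG13946. The implied fragments of CG12506 (156.5 and 66.5) and CG13946 (82.5 and 30.5) were not whole in either ND-75-i library. How the authors divided fragments that match more than 1 place is not given in the sources used here, so the split between these neighbours is uncertain.

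**Figure D2:**
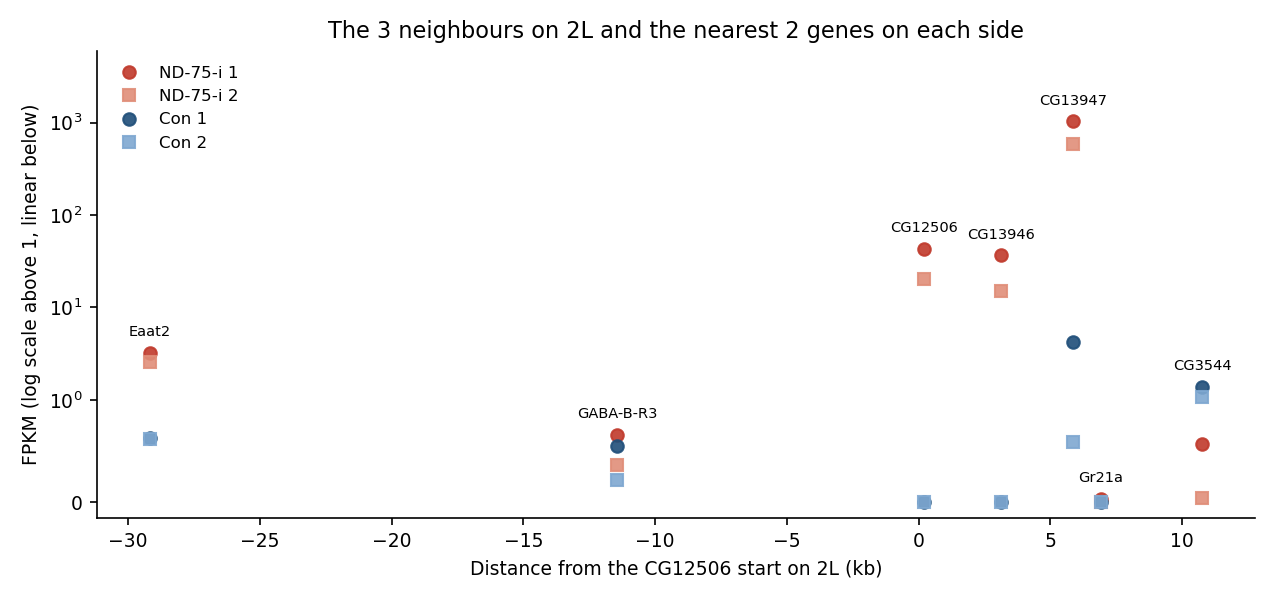
FPKM by library (ND-75-i red, Con blue) against distance from the start of CG12506 on 2L, in kb, for the 3 neighbours at their midpoints and the nearest 2 genes on each side at their nearest ends. The axis of FPKM is logarithmic above 1 and linear below. The 3 neighbours stand at 14.9 to 1030 FPKM in ND-75-i, while Eaat2, GABA-B-R3, Gr21a and CG3544 stay at or below 3.23 FPKM.

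On the log2(FPKM + 1) scale the changes of the 8 genes, ND-75-i minus Con, ran from 4.37 for CG13170 to 10.57 for lcs. They were 9.81 for CG33267, 9.10 for CG13135, 8.07 for CG13947, 7.75 for CG15741, 4.94 for CG12506 and 4.61 for CG13946. The median of the 8 was 7.91, beside 0.25 for all genes tested. These values depend on the pseudocount, since most of the Con values are at or near 0: the median was 9.49 with a pseudocount of 0.1 and 6.19 with a pseudocount of 5. At an adjusted p below 0.05, limma called 7.77% of all genes tested higher and 1.09% lower, or 8.85% in either direction. The members are not read against these shares, because the contrast chose them.

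**Figure D3:**
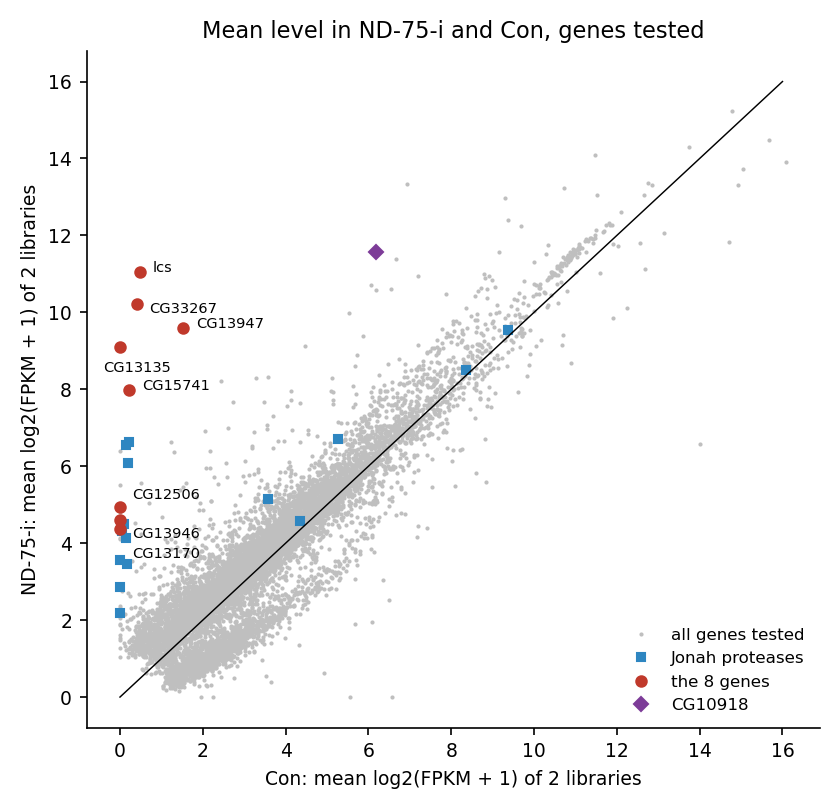
Mean log2(FPKM + 1) in ND-75-i (vertical) against Con (horizontal), 2 libraries each, for the 10017 genes tested (grey), with the 8 genes in red, Jonah proteases in blue and CG10918 in purple. The 8 genes lie along the left edge, 4.37 to 10.57 above the diagonal of equal level.

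The 8 genes split evenly by which ND-75-i library was higher. CG13135, CG13946, CG12506 and CG13947 were higher in replicate 1, and lcs, CG33267, CG15741 and CG13170 in replicate 2. Among the 4595 genes with at least 10 FPKM in both ND-75-i libraries, the log2 ratio of replicate 1 over replicate 2 had a median of 0.03, with 5th and 95th percentiles of -0.35 and 0.41. The ratio was 2.15 for CG13135, 1.30 for CG13946, 1.10 for CG12506 and 0.83 for CG13947, at or above the values of 98.9% to 99.9% of those genes. It was -0.29 for lcs, -0.37 for CG33267 and -0.54 for CG15741, so CG33267 and CG15741 lay below the 5th percentile on the opposite side. CG13170, at -0.04, lay near the middle. With 2 libraries in the group this difference between members has no replicate check.

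**Figure D4:**
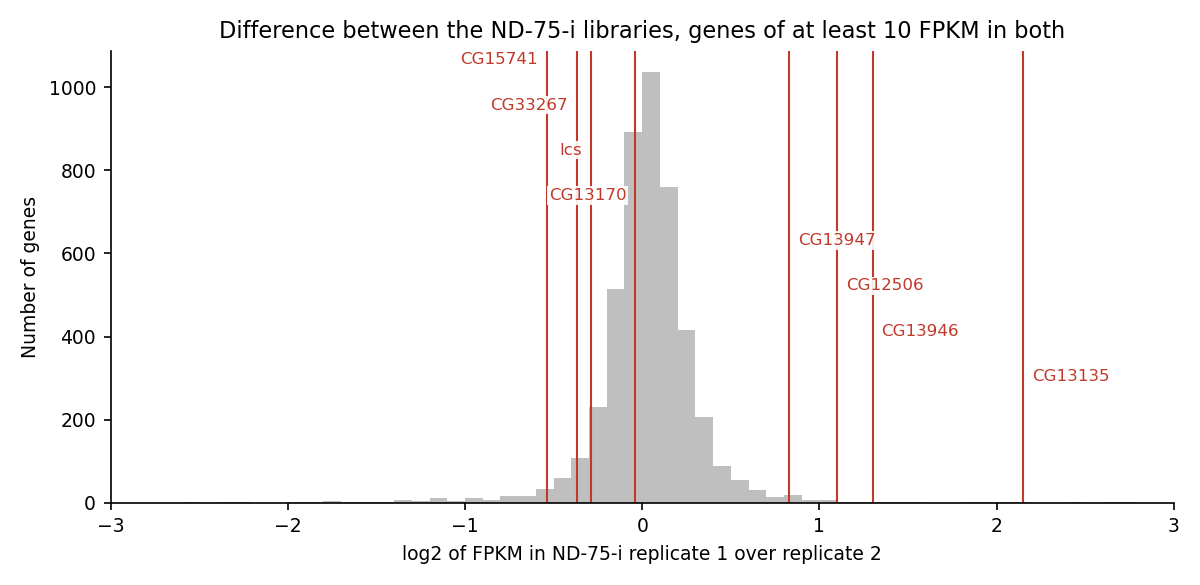
Number of genes by the log2 ratio of FPKM in ND-75-i replicate 1 over ND-75-i replicate 2, for genes with at least 10 FPKM in both libraries, with red lines at the 8 genes. The 3 neighbours on 2L and CG13135 lie at 0.83 to 2.15, and CG15741, CG33267 and lcs at -0.54 to -0.29.

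The 8 genes share short proteins. Length was not a criterion of their choice, but the FPKM that chose them divide by a length taken from the transcript. Length is therefore not independent of that choice. Their proteins have 94 to 145 residues in the current annotation: 145 for lcs, 135 for CG15741, 132 for CG13135, 119 for CG13947, 117 for CG13170, 107 for CG12506, 99 for CG13946 and 94 for CG33267. Across 13986 protein-coding genes the median was 391 residues, and 13.4% of them had at most 145. Of the 8 genes, 7 have 1 exon, against 15.3% of protein-coding genes, and 7 have a deposited locus under 600 bp, against 6.74% of 10374 protein-coding entries matched by symbol. Each of the 8 was listed with a single start site. No test was made of these shares. How the FPKM were corrected for short transcripts is not given in the sources used here. In ND-75-i replicate 1, lcs (573 bp) had 10597 implied fragments at 1910 FPKM, against 43 at 19.5 FPKM for CG13170 (354 bp). Implied fragments per FPKM thus fell more steeply than locus length, as when the length used is shorter than the transcript. Such a length raises the FPKM of the shortest genes most.

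The pattern was rare in the tables. Of 4037 genes with a usable estimate and both Con values below 1 FPKM, 25 (0.619%) reached at least 10 FPKM in both ND-75-i libraries, or 0.18% of all genes with a usable estimate. The reverse, below 1 FPKM in both ND-75-i libraries and at least 10 FPKM in both Con libraries, held for 3 of 3695 genes, CG15772 and a pair of small nucleolar RNAs. The 25 hold 7 of the 8 members. The other member, CG13947, exceeded 1 FPKM in Con replicate 1 only. The 18 remaining genes were 6 Jonah proteases, 5 small nucleolar RNAs and 7 others.

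Among those others, CG42725 stood at 54.2 and 36.5 FPKM in ND-75-i and was listed at 0 in both Con libraries. CG34105 was at 98.5 and 21.7 FPKM in ND-75-i, against 0.727 and 0.178 FPKM in Con, with replicate 1 the higher ND-75-i library. CG42815 went the other way, at 14.5 and 66.9 FPKM in ND-75-i, with 0 listed in both Con libraries. CG5724, now Ugt37A2 of the UDP-glycosyltransferases, had 31.2 and 32.7 FPKM in ND-75-i, against 0.548 and 0.733 FPKM in Con. The hexokinase gene Hex-C had 26.8 and 17.8 FPKM in ND-75-i, against 0.216 and 0.371 FPKM in Con, and CG34446 had 15.3 and 25.2 FPKM in ND-75-i, with 0 listed in Con. The lowest genes inside the limits were Jon25Biii, with 10.2 and 26.1 FPKM in ND-75-i, and snoRNA:Psi28S-1153, with 11.1 and 24.5 FPKM. Just outside were Jon65Ai, at 9.92 and 12 FPKM, Cyp18a1, at 10 and 9.72 FPKM, and Jon99Fii, at 9.52 and 10.5 FPKM in ND-75-i, each below 1 FPKM in both Con libraries.

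The genes closest to the mean profile of the 8 were found by Euclidean distance over the 4 libraries on the log2(FPKM + 1) scale. The nearest was the midgut protease gene Jon99Cii (distance 1.73), at 86.1 and 110.4 FPKM in ND-75-i, against 0.114 and 0.223 FPKM in Con. Jon99Ciii (1.82) had 82.3 and 104 FPKM in ND-75-i, against 0.108 and 0.106 FPKM in Con. They were followed by snoRNA:Psi18S-1377b (1.96), CG16898 (2.18), Jon66Ci (2.51), CG18180 (2.56), CG14237 (3.08), CG42725 (3.19), CG14852 (3.25) and CG34105 (3.28). CG14237 was at 354 and 246 FPKM in ND-75-i, against 6.25 and 3.06 FPKM in Con, the highest levels of these 10. The members themselves lay 0.83 (CG15741) to 4.8 (CG13170) from their mean profile.

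The genes around the members were not used to choose them, and their calls come from the fit over all genes. The nearest 2 genes on each side of each member made 24 genes, of which 14 could be tested and 9 were below 1 FPKM in all 4 libraries. CG32663 and CG32662, both among the 14, are 1 gene, rudhira, in the current annotation. limma called 1 of the 14 higher and 0 lower, beside 7.77% and 1.09% of all genes tested. At an unadjusted p below 0.05, 5 were higher and 1 lower, beside 29.4% higher and 7.73% lower of all genes tested. Their median log2 change was -0.03, beside 0.25 for all genes tested.

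The 1 call was CG13169, on 2R at 8128747 to 8130778, 479 bp to the right of CG13170. It was at 13.8 and 19.4 FPKM in ND-75-i, against 1.63 and 0.698 FPKM in Con, both ND-75-i libraries high and both Con libraries low (log2 change 3.04, SE 0.315, limma adjusted p = 0.0238). The call was lost with any 1 library left out, with adjusted p from 0.0517 to 0.138, and without the filter on low values (0.0679). The current annotation has divided CG13169 into CG43315 and CG43316. On the other side of CG13170, CG13171 was at 1.44 and 0.396 FPKM in ND-75-i, against 2.43 and 0.398 FPKM in Con, and did not pass (adjusted p = 0.762).

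Around the 3 neighbours on 2L, Gr21a, a subunit of the carbon dioxide receptor of sensory neurons, lies 826 bp to the right of CG13947 and was at 0.0325 and 0 FPKM in ND-75-i, with 0 listed in both Con libraries. CG3544, the next gene, was at 0.567 and 0.0446 FPKM in ND-75-i, against 1.37 and 1.07 FPKM in Con (adjusted p = 0.158). To the left, GABA-B-R3, a GABA receptor subunit gene, was below 1 FPKM in all libraries. Eaat2, an amino acid transporter gene 29179 bp to the left of CG12506, was at 3.23 and 2.59 FPKM in ND-75-i, against 0.627 and 0.615 FPKM in Con (log2 change 1.27, SE 0.222, adjusted p = 0.0518). It passed only with a pseudocount of 5 (0.49, adjusted p = 0.0488). Eaat2 met the filter on low values only through the ND-75-i libraries and CG3544 only through the Con libraries, which fixed the direction of any call.

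CG33490, which starts 198 bp to the right of CG33267, was at 2.68 and 0.0469 FPKM in ND-75-i, against 3.65 and 2.31 FPKM in Con (adjusted p = 0.322). CG7394, 654 bp to its left, was at 42.6 and 36.4 FPKM in ND-75-i, against 28.7 and 30.2 FPKM in Con (adjusted p = 0.104). Beside lcs, mst was at 3.32 and 2.70 FPKM in ND-75-i, against 2.32 and 3.28 FPKM in Con (adjusted p = 0.792), and CG1678 was at 0.419 and 0 FPKM in ND-75-i, with 0 listed in Con. Beside CG15741, the P450 gene Cyp28c1 was at 0.294 and 0.541 FPKM in ND-75-i, against 0.111 and 0 FPKM in Con. Levels of 208 FPKM and more in these members stood next to genes at 0 to 42.6 FPKM. Hlc, to the left of lcs, was at 38.8 and 36.4 FPKM in ND-75-i, against 17.5 and 25.2 FPKM in Con (limma adjusted p = 0.0823). CG4839, to the right of CG13135, was at 7.04 and 5.23 FPKM in ND-75-i, against 3.17 and 1.15 FPKM in Con (0.117). CG32662, to the left of CG15741, was lower, at 4.86 and 5.11 FPKM in ND-75-i, against 7.17 and 7.67 FPKM in Con (0.104). Beyond the nearest genes, CG10918, a gene picked for its values and lying 31314 bp to the right of lcs, stood at 2515 and 3678 FPKM in ND-75-i, against 116 and 44.5 FPKM in Con (log2 change 5.38, SE 0.528, adjusted p = 0.0224).

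Several other tissues touch the larval fat body, and a bulk sample cannot tell fewer cells of a type from less RNA per cell. Trypsins, lysozymes and other markers of the midgut, the digestive epithelium, summed to 1274 and 2991 FPKM in ND-75-i, against 255 and 2975 FPKM in Con. The sum in Con replicate 2 was close to that in ND-75-i replicate 2 and above that in ND-75-i replicate 1. The sum was lowest in Con replicate 1. The most abundant genes weigh most in it, as gammaTry did with 1010 FPKM in Con replicate 2. limma called 0 of the 11 midgut markers tested, with 2 higher at an unadjusted p below 0.05, beside 29.4% of all genes tested. Their median log2 change was 1.10, beside 0.25 for all genes tested. The trypsin gene gammaTry was at 382 and 859 FPKM in ND-75-i, against 154 and 1010 FPKM in Con, and the lysozyme gene LysB had 269 and 843 FPKM in ND-75-i, against 3.59 and 601 FPKM in Con. Npc1b, for sterol uptake, and lab, of the copper cells, both genes of the midgut epithelium, were at or below 0.203 FPKM in every library. Peritrophin-15a was at 25.5 and 4.02 FPKM in ND-75-i, against 0.514 and 0 FPKM in Con (log2 change 3.23, limma adjusted p = 0.0959, unadjusted 0.0234). Peritrophin-15b had 6.37 and 3.19 FPKM in ND-75-i, against 1.31 and 0.641 FPKM in Con (log2 change 1.51, limma adjusted p = 0.084, unadjusted 0.0177). Both peritrophin genes were higher in ND-75-i replicate 1 than in replicate 2, and neither was called. Peritrophin-15a met the filter on low values only through the ND-75-i libraries, so it could only be called higher. These 4 genes were picked with values known. The part of midgut RNA in the levels of the 8 genes was not tested.

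The Jonah genes, serine proteases of the midgut, divided into genes near 0 in Con and higher in ND-75-i and genes without that difference. The limits of below 1 FPKM in both Con libraries and at least 10 FPKM in both ND-75-i libraries held for 6 of them. Of 15 tested, 10 were called higher, beside 7.77% of all genes tested, and 0 lower, with a median log2 change of 3.28. Both Con values of each of the 10 were at or below 0.243 FPKM. They passed the filter on low values through the ND-75-i libraries, so they could only be called higher, and the count is a description. The 10 included Jon66Ci, at 53.7 and 82.8 FPKM in ND-75-i, against 0.0587 and 0.231 FPKM in Con (log2 change 5.89). Jon65Aiv, the most abundant, was at 424 and 1317 FPKM in ND-75-i, against 239 and 1819 FPKM in Con (adjusted p = 0.916). The whole list summed to 1018 and 2715 FPKM in ND-75-i, against 397 and 2819 FPKM in Con. Of the 16 Jonah genes, 0 and 1 were listed at 0 in ND-75-i replicates 1 and 2, against 4 and 7 in Con. Their part in the levels of the 8 genes was not tested.

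**Figure D5:**
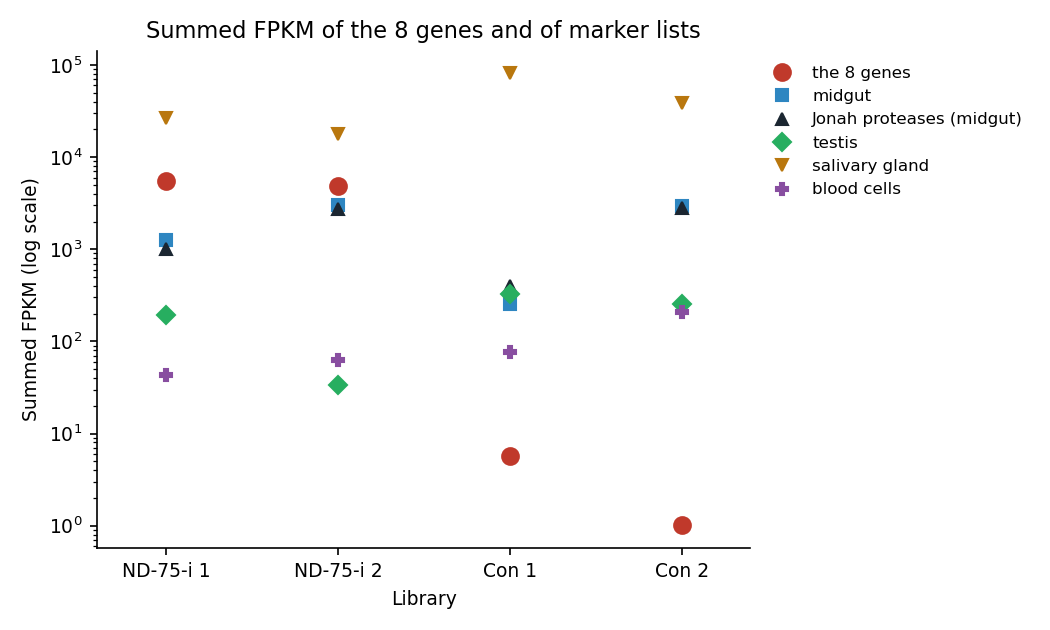
Summed FPKM, on a log axis, of the 8 genes and of the midgut, Jonah, testis, salivary gland and blood cell lists in the 2 ND-75-i libraries (left) and the 2 Con libraries (right). The 8 genes sum to 5449 and 4883 in ND-75-i and to 5.64 and 1.01 in Con. The midgut list sums to 1274 and 2991 in ND-75-i and to 255 and 2975 in Con.

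Markers of the other tissues are given with their unadjusted counts at p below 0.05, a threshold that 29.4% of all genes tested passed as higher and 7.73% as lower. Testis markers summed to 194 and 34.0 FPKM in ND-75-i, against 330.1 and 256 FPKM in Con, and limma called 0 of 9 (1 lower at an unadjusted p below 0.05). Salivary gland markers, mostly glue genes such as Sgs7 and Sgs3, summed to 26379 and 17979 FPKM in ND-75-i, against 81264 and 38570 FPKM in Con, with 0 of 8 called (4 lower unadjusted). Muscle markers summed to 78.7 and 57.0 FPKM in ND-75-i, against 46.9 and 50.0 FPKM in Con, with 0 of 13 called (3 higher unadjusted). Blood cell markers summed to 43.1 and 62.5 FPKM in ND-75-i, against 76.5 and 209.8 FPKM in Con (0 of 7 called, 2 lower unadjusted). Cuticle and trachea markers summed to 53.2 and 59.8 FPKM in ND-75-i, against 34.6 and 98 FPKM in Con (0 of 8 called, 1 higher and 1 lower unadjusted).

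Malpighian tubule markers summed to 23.4 and 30.3 FPKM in ND-75-i, against 37.5 and 51.5 FPKM in Con (0 of 4 called, 1 lower unadjusted). The 3 hindgut markers summed to 8.01 and 7.87 FPKM in ND-75-i, against 2.90 and 8.78 FPKM in Con, and the 1 that could be tested was not called, nor did it pass unadjusted. Neuron markers summed to 95.1 and 80 FPKM in ND-75-i, against 64 and 71.1 FPKM in Con, with a median log2 change of 1.33. Of 6 tested 2 rose, n-syb and elav, beside 7.77% of all genes tested, and 0 fell (5 higher unadjusted). The RNA-binding protein gene elav was at 13.7 and 10.7 FPKM in ND-75-i, against 4.04 and 3.34 FPKM in Con (log2 change 1.49, SE 0.195, limma adjusted p = 0.0336). Syt1, the most abundant of the list, was at 52.8 and 50.4 FPKM in ND-75-i, against 54.4 and 62.8 FPKM in Con. It was not called (log2 change -0.18, limma adjusted p = 0.277). The part of these tissues in the members' levels was not tested.

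The fat body's own markers had a lower sum in ND-75-i. The 7 with a usable estimate summed to 14068 and 26063 FPKM in ND-75-i, against 76551 and 80333 FPKM in Con. Most of the Con sums came from Fbp2, Lsp1alpha and Fbp1. Over the 7 the median log2 change was -0.25, beside 0.25 for all genes tested. limma called 1 higher and 1 lower, beside 7.77% and 1.09% of all genes tested. At an unadjusted p below 0.05, 1 was higher and 3 lower, beside 29.4% and 7.73% of all genes tested. The larval serum protein gene Lsp1alpha fell to 2893 and 4506 FPKM in ND-75-i, against 28004 and 25267 FPKM in Con (log2 change -2.88, SE 0.272, limma adjusted p = 0.022), while the collagen IV gene Cg25C rose, at 362 and 310.3 FPKM in ND-75-i, against 182 and 143 FPKM in Con (adjusted p = 0.0432). Fbp1, a storage protein receptor gene also picked with its values known, had 22.5 and 393 FPKM in ND-75-i, against 14971 and 17897 FPKM in Con (adjusted p = 0.0595).

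Over the series as a whole, ND-75, listed as ND75, was at 94.8 and 79.0 FPKM in ND-75-i fat bodies, against 46.6 and 43.9 FPKM in Con (log2 change 0.92, adjusted p = 0.0352). Values of w, the gene targeted in Con larvae, were 2.11 and 6.96 FPKM in ND-75-i, against 2.48 and 5.37 FPKM in Con (adjusted p = 0.925), and neither value measures the knockdown in muscle. FPKM share the total of their library, and the 10 highest entries took 18.8% and 20.1% of summed FPKM in ND-75-i, against 35.5% and 33.1% in Con. Of 10017 genes tested, limma called 778 higher and 109 lower, and the split was 326 higher and 130 lower after median-ratio rescaling and 493 higher and 295 lower after quantile normalization. With any 1 library left out limma called 0 genes in either direction, with 2364 to 3335 genes at an unadjusted p below 0.05.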

How the data were processed

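Messenger RNA of 4 fat body libraries was measured, 2 per group. The authors deposited 1 table of gene FPKM per library, with bounds and a status, per the file headers. Per the submitters' processing notes, Bowtie 0.12.2 was among the tools. Genome build, annotation, strand setting and the program behind the FPKM were not given in the sources used here. Total depth was not estimated here. Lines were joined by position, since 5 names in 1 Con table had become dates, and 93 symbols on several lines were summed.

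Two-sided tests came from limma 3.58.1 (R 4.3.3), fitted with a term for group and a variance trend to log2(FPKM + 1) of 10017 genes. These had status OK in all libraries and 1 FPKM or more in at least 2. Adjustment was by Benjamini-Hochberg, at a threshold of 0.05. The design had named a count test in case the files held counts. They do not, so it was not used. limma had 2 residual and 1.95 prior degrees of freedom. It was also tested on simulated data. On this scale the change of a low gene is understated. Protein lengths, exons and current names came from Ensembl and RefSeq annotations, whose coordinates were not used. All 8 members matched.

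The members, marker lists and tests were chosen with earlier results of these data known. Named genes were the members, ND-75 and w, flanking genes, the 10 genes nearest to the mean profile, up to 12 genes inside the near-0 limits, and up to 2 per marker list; others were named after their values were seen. Alternatives were each library left out, the replicate number as a block, quantile normalization, median-ratio rescaling, no low filter, a minimum mean of 5 FPKM, and pseudocounts of 0.1 and 5. Figures were drawn with matplotlib 3.10.9 and tables joined with pandas 2.3.3 and NumPy 2.4.6 in Python 3.11.15.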

Additional observations from a re-analysis of the deposited data

How the results depend on the processing

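All 8 members kept a positive change under every alternative run, which their selection on these same values largely fixed in advance. Their median log2 change was 9.49 with a pseudocount of 0.1 and 6.19 with a pseudocount of 5, and 7.37 to 8.45 with 1 library left out. Genes inside the near-0 limits numbered 25, and 35 to 40 when 1 library was left out, by the alternative's own construction. Genes called higher numbered 209 with no low filter, 493 after quantile normalization and 326 after median-ratio rescaling, and genes called lower 49 with no low filter and 295 after quantile normalization; the cause was not tested. The median change of all genes was 0.25, and it was 0.04 with quantile normalization and -0.02 with median-ratio rescaling. Flanking calls numbered 1, 2 with a pseudocount of 5 and 0 with no low filter (where 7 rose and 1 fell at an unadjusted p below 0.05). Marker calls numbered 14 of 89, and 7 with no low filter. With 1 library left out, limma called 0 flanking, 0 marker and 0 of all genes, against 2364 to 3335 of all genes and 32 to 34 markers at an unadjusted p below 0.05. A lone library there is assumed to vary like the other group.

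The labels do not state what same-numbered libraries share beyond the number. Their replicate differences correlated across genes at 0.357. With the replicate number as a block, 794 genes were called higher and 200 lower, 24 markers were called, and the flanking call was CG13169 alone, as without it. Pairs of low implied fragments, such as 43 and 40 for CG13170, limit precision.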
